A study of Drosophila melanogaster with 2 samples.

Results

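The 9 genes described here are the core of the Notch pathway in the fly, chosen by symbol: the receptor N, its ligands Dl and Ser, the ligand regulator neur, the receptor modifier fng, the receptor protease kuz, and the nuclear proteins Su(H), mam and H. All 9 were found, each once, among the 17753 genes of the files. They were measured in medulla neuroblasts (NBs) that were sorted from the larval brain and sequenced as single cells in 2 libraries, each from 120 untreated larvae of the third instar raised at 25 °C. All larvae carried E(spl)mgammaGFP together with SoxNGal4 and UAS-RedStinger, with TM6B as the balancer. Cells positive for both fluorescent proteins had been sorted, so E(spl)mgamma-HLH, a Notch target whose GFP fusion was 1 of the 2 gates, is a gene used for the sort. The pooled larvae of an experiment make 1 library, and the data hold 1 condition. The comparisons are therefore between classes of cells within the same 2 libraries. With the library as a block, p-values measure only how far the differences between classes vary between these libraries.

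Notch signaling works between touching cells. A ligand on one cell pulls on the receptor of its neighbor, the receptor is cut, and its intracellular part enters the nucleus, where it joins the DNA-binding protein Su(H) and the coactivator Mam to switch on target genes such as those of the Enhancer of split complex. In fly neuroblasts Notch activity helps to keep the stem cell state, and in the medulla it also acts at the edge of the neuroepithelium where neuroblasts arise and in the daughters of ganglion mother cells, where it separates sister fates.

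Unique molecular identifiers (UMIs) were summed over the cells of a class in each library and are given as UMIs per 1000000 UMIs of the class (CPM), library 1 first and library 2 second. A UMI marks the 3′ end of a transcript, so CPM does not grow with gene length. Library 1 held 42618478 UMIs in 6548 cells and library 2 held 116712060 UMIs in 5343 cells. Cells with less than 10% mitochondrial UMIs and at least 1 dpn UMI were taken as dpn-positive (776 and 2298 cells), dpn being a defining NB gene. The highest of 7 stage factors, hth, ey, slp1, D, B-H1, tll and gcm, placed 550 and 2048 of them in a stage, from young to old. A further 18 and 39 cells were high in hth and nearly without mira UMIs, and 495 and 1844 cells had no dpn UMI. None of the 9 genes was used to form these classes. Of the staged NBs, 1692 of 2598 held at least 2 UMIs of more than 1 stage factor, so the stages overlap. Defining NB markers were present in every stage, with mira between 417 and 1215 CPM in the stage sums. The sort also held other cells, described with their markers below. The libraries share 9 barcodes, 4 of them among classed cells.

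Differences were tested with edgeR's quasi-likelihood test on the sums, and a gene was called at a Benjamini-Hochberg adjusted p under 0.05 over all 8073 genes tested. Of the 9 members, 8 passed the filter on low counts and Ser did not. Among the 7 stages, 4 of the 8 tested members were called, against 38.8% of all genes tested: Dl, Su(H), neur and fng. Between neighboring stages 6.57% of genes were called for ey over hth, 0.718% for slp1 over ey, 0.0124% for D over slp1, 0.545% for B-H1 over D, 1.08% for tll over B-H1 and 0.359% for gcm over tll, and of the members fng alone was called, once. Between the gcm and the hth stage 5 of 8 were called, of which N, Dl, Su(H) and kuz were higher and fng lower in the gcm stage, against 42.3% of all genes (18.7% higher and 23.6% lower). The median log2 difference of the 8 members in that comparison was 0.49, beside -0.15 over all genes tested. Some further values stand beside every comparison with the hth stage. The hth-stage cells of library 1 were shallow (median 6229 UMIs, against 96356.5 in library 2), and 23 of 49 of them held neuron genes other than elav, against 5 of 56 in library 2. At the other end, the gcm-stage sums held 6131 and 4884 CPM of 5 markers of ganglion mother cells or new neurons, against 5130 and 407 CPM in the hth-stage sums. Of these markers dap (2641 and 2159 CPM) and nerfin-1 (1783 and 1304 CPM) were the highest in the gcm stage. The paper reports both in the oldest NBs themselves, so there they do not set progeny apart from NBs. In the hth-stage sum of library 1 the highest was pros, at 5004 CPM. The part of progeny cells in the differences was not tested.

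**Figure D1:**
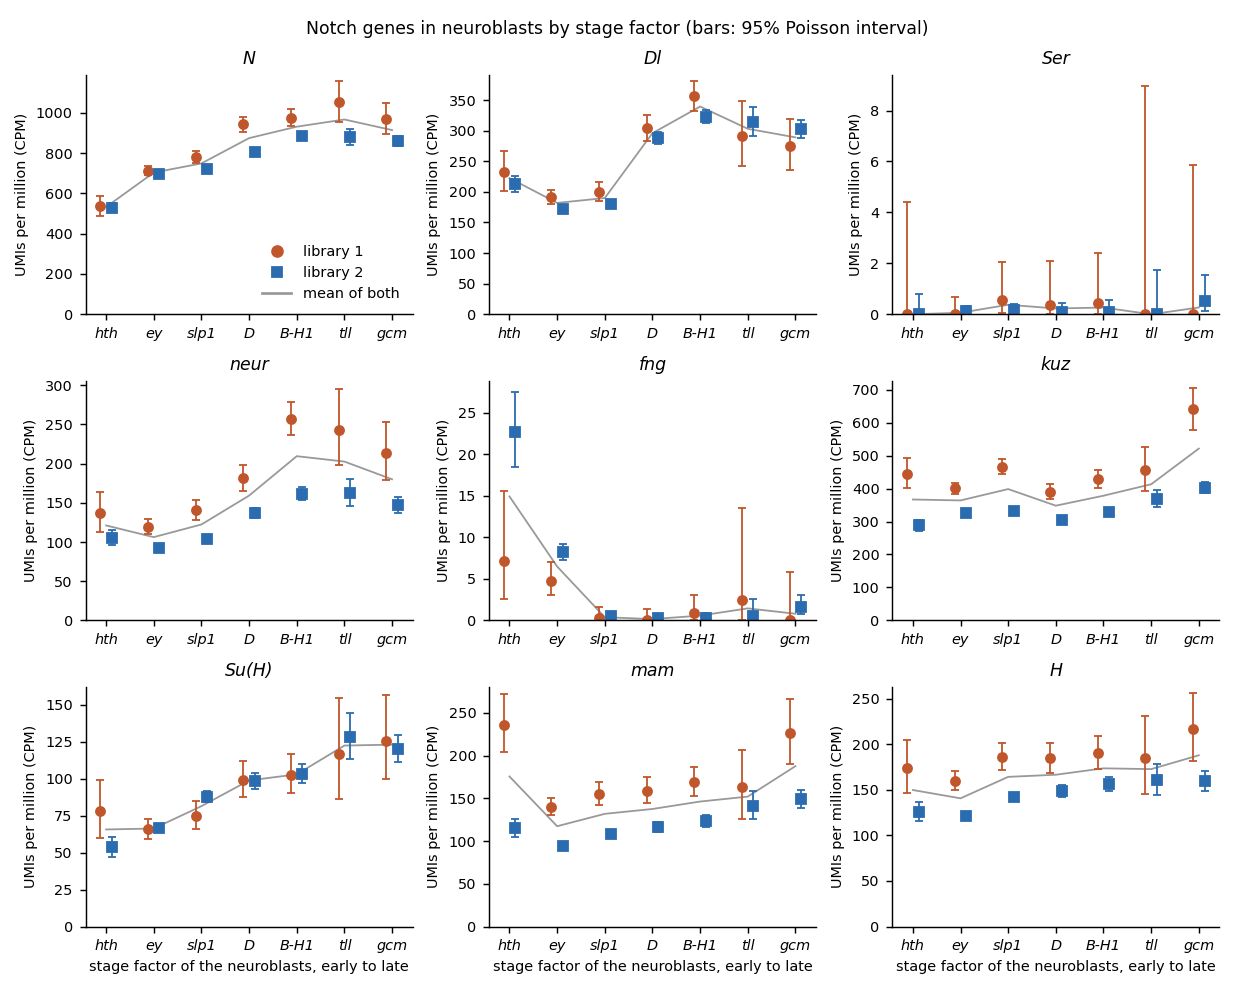
Level of each of the 9 Notch genes in CPM (vertical axis, linear from 0) in NBs of the 7 stage factors, early to late (horizontal axis). Circles are library 1, squares library 2, bars the 95% Poisson interval of the UMI count, and the grey line the mean of both libraries. N, Su(H), Dl and neur were higher in late than in early stages in both libraries, fng was found mainly in the hth and ey stages, and Ser stayed under 0.6 CPM.

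N (FBgn0004647) encodes the receptor and lies on the X chromosome (X:3134870-3172221, plus strand, BDGP6.54 annotation). Library 1 held 536, 712, 779, 942, 976, 1052 and 970 CPM of N from the hth to the gcm stage. Library 2 held 529, 694, 719, 806, 885, 881 and 858 CPM over the same stages. The hth stage was the lowest and the tll, B-H1 and gcm stages were the highest on average, and no value of the D or a later stage reached down to those of the hth, ey and slp1 stages. The fitted gcm over hth difference was 0.82 ± 0.24 on the log2 scale (SE), a fold of 1.76 (edgeR, adjusted p = 0.0136). The test over all 7 stages did not call N (edgeR, adjusted p = 0.114), and neither did any test of neighboring stages. The gcm over hth call was lost with a mitochondrial limit of 20% (0.66) and without the deepest 5% of cells (0.70), with the same direction.

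Dl (FBgn0000463; 3R:19302731-19326217, minus strand) encodes the ligand Delta. Library 1 held 232, 191, 200, 304, 356, 292 and 275 CPM from the hth to the gcm stage, and library 2 held 213, 173, 180, 288, 323, 315 and 303 CPM. Dl therefore did not follow N step by step: it was lowest in the ey and slp1 stages, higher from the D stage on, and highest in the B-H1 stage on average (339 ± 23.4 CPM, SD, n = 2). The 7 stages differed (edgeR, adjusted p = 0.000982). The step with the smallest unadjusted p was D over slp1, at 0.62 ± 0.15 on the log2 scale, which did not pass the adjustment over all genes (edgeR, adjusted p = 0.278), where 0.0124% of genes were called. The gcm over hth difference was 0.43 ± 0.15 (edgeR, adjusted p = 0.033). It was not called when staged cells holding neuron genes were left out, an alternative chosen after seeing the data, nor under 7 others.

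Ser (FBgn0004197; 3R:27172090-27194267, minus strand) encodes Serrate, the other ligand. It was close to absent from NBs. The staged NBs of library 1 held 4 Ser UMIs, or 0.253 CPM (95% Poisson interval 0.069 to 0.648), and those of library 2 held 14 UMIs, or 0.145 CPM (0.0791 to 0.243). No stage exceeded 5 Ser UMIs in either library, and the intervals and floors cover counting error only. The dpn-negative cells with neuron genes held 1 Ser UMI in each library, and so did the other dpn-negative cells.

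neur (FBgn0002932; 3R:9020348-9039471, minus strand) encodes a ubiquitin ligase that promotes endocytosis of the ligands. Library 1 held 137, 120, 140, 181, 257, 243 and 213 CPM from the hth to the gcm stage, and library 2 held 106, 92.7, 104, 137, 162, 162 and 147 CPM. As for Dl, the ey stage was the lowest and the B-H1 stage the highest on average, and within each library every value from the D stage on was above every earlier one. The 7 stages differed (edgeR, adjusted p = 0.0403), whereas the gcm over hth difference of 0.58 ± 0.27 was not called (edgeR, adjusted p = 0.093). The call over the stages was lost with a mitochondrial limit of 20%, in thinned cells and without the library block.

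fng (FBgn0011591; 3L:20925891-20949512, minus strand) encodes a glycosyltransferase that changes which ligand the receptor answers to. It was low everywhere and had the steepest change of the members. The hth-stage sums held 6 UMIs (7.19 CPM) in library 1 and 103 UMIs (22.7 CPM) in library 2. The ey-stage sums held 26 UMIs (4.77 CPM) and 271 UMIs (8.22 CPM). From the slp1 stage on, no sum held more than 14 UMIs or 2.43 CPM, and the D and gcm stages of library 1 held none, which allows up to 1.13 and 4.78 CPM (3 counts). In library 2, 27 of 56 hth-stage cells and 110 of 428 ey-stage cells had an fng UMI, against 12 of 570 slp1-stage cells. The slp1 over ey difference was the one member difference called between neighboring stages, at -4.05 ± 0.66 on the log2 scale (edgeR, adjusted p = 0.0116, where 0.718% of genes were called), and the 7 stages differed (edgeR, adjusted p = 3.2e-05). The slp1 over ey call was lost, with the same direction, in 4 alternatives, among them the mitochondrial limit of 20% and the fit without the library block.

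kuz (FBgn0259984; 2L:13550139-13639411, plus strand) encodes the metalloprotease that cuts the receptor outside the cell after ligand binding. Its levels lay between 390 and 466 CPM in the first 6 stages of library 1 and between 288 and 369 CPM in those of library 2. The gcm stage was the highest in both, at 640.0 and 403 CPM, against 446 and 288 CPM in the hth stage. The gcm over hth difference was 0.55 ± 0.17 (edgeR, adjusted p = 0.0185), and the 7 stages were not called (edgeR, adjusted p = 0.0724). The gcm over hth call was lost with the latest stage factor, in thinned cells and without the library block. The gcm over tll step was 0.40 ± 0.17 and was not called (edgeR, adjusted p = 0.513).

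Su(H) (FBgn0004837; 2L:15039488-15043334, plus strand) encodes the DNA-binding protein of the pathway. Library 1 held 77.9, 65.8, 75.0, 99.5, 103, 117 and 126 CPM from the hth to the gcm stage, and library 2 held 53.5, 66.8, 87.9, 98.3, 103, 128 and 120 CPM. The levels at the late stages lay above those at the hth, ey and slp1 stages in both libraries. The gcm over hth difference was 1.01 ± 0.17 (edgeR, adjusted p = 0.000275), a fold of 2.02 and the largest increase of a member over the stages. Across the 7 stages the adjusted p was 0.000869 (edgeR). This call was lost in cells thinned to 2000 UMIs and in no other alternative that was run.

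The coactivator gene mam and H, whose product is the antagonist that binds Su(H) and recruits co-repressors, did not pass the test. mam (FBgn0002643; 2R:13991203-14060356, plus strand) stood at 226 and 149 CPM in the gcm stage and at 236 and 114.9 CPM in the hth stage, and the ey stage was the lowest in both libraries (140.1 and 94.6 CPM). H (FBgn0001169; 3R:20621938-20628915, plus strand) lay between 160.1 and 217 CPM in library 1 and between 121 and 161 CPM in library 2 over the stages. For mam the adjusted p over the stages was 0.0666 (edgeR) and for H 0.630 (edgeR). mam was called over the stages when staged cells holding neuron genes were left out, and also with DESeq2 and with its size factors. For mam, H, neur and kuz the difference between the libraries at a stage, with library 1 higher, was often as large as that between stages.

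In the order of the levels, then, the members fell into 4 descriptions. N and Su(H) were low in the young stages and high in the old ones. Dl and neur had their minimum at the ey stage and their maximum at the B-H1 stage. fng was found mainly in the hth and ey stages, and kuz was highest at the gcm stage. Pearson correlations of log2(CPM + 1) over the 14 sums, centred within each library, were 0.92 for Dl with neur, 0.83 for N with Su(H), 0.67 for N with Dl and 0.02 for N with mam. These points share libraries and depth, and the values are descriptions. Among 4077 genes compared in the same way, the 3 genes most like Dl were gukh (0.93), neur (0.92) and tna (0.90). Those most like neur were Hs6st (0.95), Sirt1 (0.95) and tna (0.95). For N they were BEAF-32 (0.98), AdenoK (0.98) and MRG15 (0.97), and for Su(H) gus (0.99), Usf (0.98) and Hcf (0.98). For mam they were CG5151 (0.92), pum (0.92) and Kdm2 (0.91), for H PIP4K (0.95), Sema1a (0.95) and DAAM (0.95), and for kuz Gug (0.93), bigmax (0.91) and CG6325 (0.91).

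Within a stage, NBs differed more in Dl than in most genes of the same level. Cells were thinned to 10000 UMIs each, shallower cells were left out, and the variance of the UMIs over cells was divided by their mean (the Fano factor, about 1 for counting noise alone). In the gcm stage of library 2 (307 cells), Dl had a mean of 2.92 UMIs and a Fano factor of 2.50, against a median of 1.12 over 246 genes of like mean, and the highest cell held 19 UMIs. In the slp1 stage of the same library (555 cells) the Fano factor of Dl was 2.20 against a median of 1.09. Over the 12 sets of library and stage with at least 30 such cells, between 64.4% and 97.4% of genes of like mean had a lower Fano factor than Dl. For neur that share was between 86.3% and 94.99% in the 7 sets of library 2, and between 26.0% and 95.8% in the 5 sets of library 1. For N it lay between 32.1% and 78.0%. Cell by cell, Spearman correlations of Dl with N in thinned cells lay between -0.04 and 0.33 over the 12 sets, and those of Dl with neur between 0.02 and 0.24. Counting noise at few UMIs a cell (a mean of 2.92 for Dl in the gcm stage of library 2) weakens such correlations. They therefore cannot show whether the genes vary together in cells.

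**Figure D2:**
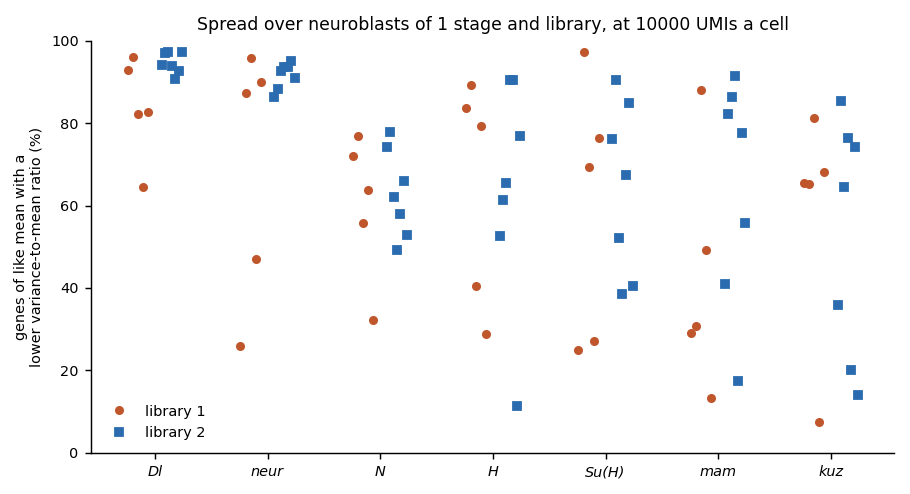
Spread of 7 Notch genes over NBs of one stage and library, thinned to 10000 UMIs a cell. The vertical axis is the percentage of genes of like mean (within 1.25-fold) with a lower variance-to-mean ratio than the gene on the horizontal axis. Each point is a stage, circles for library 1 and squares for library 2. All points of Dl lie above 60%, whereas those of N lie between 32.1% and 78.0%.

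The hth-high low-mira cells hold hth, dpn and E(spl)mgamma-HLH but hardly any mira. Some of them also hold neuron genes. Without neuron genes there were 2 cells in library 1 and 25 in library 2, and with neuron genes 16 and 14 cells. Their sums held 1995 and 2109 CPM of 8 markers of the neuroepithelium and its transition in the cells without neuron genes, and 1319 and 1618 CPM in those with them, against 583 and 580 CPM in the hth stage. In the cells without neuron genes Ocho, pnt, aop, ed and crb were higher than in the hth stage in both libraries, with 2 cells in library 1. l(1)sc was near the floor, at 11.2 and 1.52 CPM against 3.59 and 0.661 CPM, the level of 3 counts in the hth-stage sums. rho was lower, at 0 and 6.07 CPM against 56.3 and 113 CPM. shg was mixed, at 123 and 183 CPM against 228 and 166 CPM. For 16 of the 57 cells the neuron genes lay between 50 and 200 CPM, near the limit of 100 CPM that divides them. With 2 cells in library 1, the cells without neuron genes have no replicate and are given without a test.

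In those 25 cells of library 2, Dl was high and neur was low, with a neur UMI in 60% of the cells. Dl stood at 419 CPM (95% Poisson interval 391 to 449), against 213 CPM (199 to 227) in the hth stage of that library. Every one of the 25 cells held Dl, with 166 CPM in the lowest, 296 CPM in the median and 1108 CPM in the highest cell, whereas the hth-stage cells ran from 0 through a median of 173 to 907 CPM. neur stood at 16.2 CPM (11.1 to 22.9), against 106 CPM (96.4 to 116) in the hth stage. The median cell held 8.81 CPM of neur and the highest 84.3 CPM. kuz was also lower, at 173 CPM (155 to 192) against 288 CPM (273 to 304). fng stood at 5.06 CPM (2.43 to 9.31) against 22.7 CPM (18.5 to 27.5). N stood at 619.9 CPM (586 to 656) against 529 CPM (508 to 551), Su(H) at 40.5 CPM (32.1 to 50.4) against 53.5 CPM (47.0 to 60.7), and mam at 165 CPM (148 to 184) against 114.9 CPM (105 to 125). The 2 cells of library 1 held 213 CPM of Dl (19 UMIs) and 44.8 CPM of neur (4 UMIs).

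**Figure D3:**
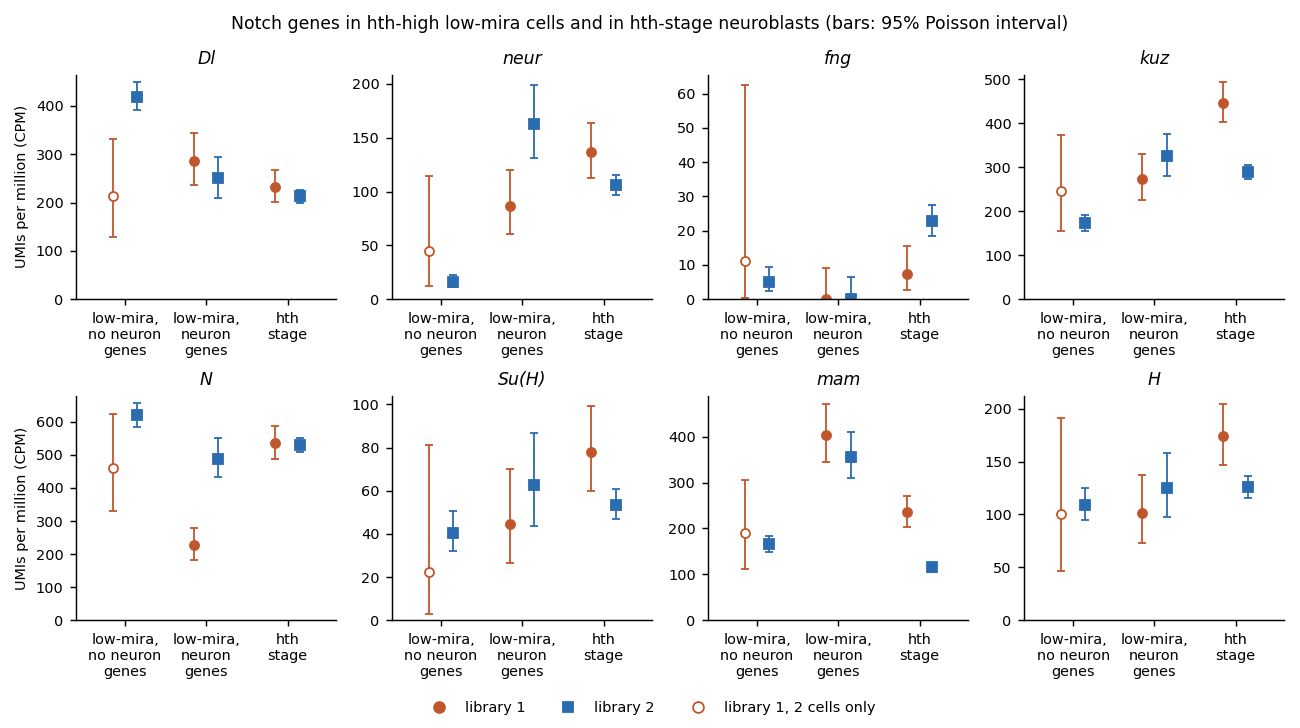
CPM of 8 Notch genes (vertical axes, linear from 0) in hth-high low-mira cells without neuron genes, in those with neuron genes and in hth-stage NBs. Circles are library 1 (open where the sum holds 2 cells), squares library 2, and bars the 95% Poisson interval. In library 2, Dl stands at 419 CPM and neur at 16.2 CPM in the cells without neuron genes, against 213 and 106 CPM in the hth stage.

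The test took all hth-high low-mira cells of a library as 1 class, a grouping chosen after seeing the data. Cells with neuron genes made up 16 of 18 cells in library 1 and 14 of 39 in library 2, so the libraries held unlike mixtures. Over the hth stage, 4 of 8 tested members were called, against 14.4% of the 7588 genes of that fit (5.61% higher and 8.82% lower), with Dl and mam higher and neur and kuz lower. Of all genes called, 38.9% were higher, against 50.8% with DESeq2's size factors and 52.0% with DESeq2. These cells held 17023 and 1526 CPM of the 5 markers of ganglion mother cells or new neurons, against 5130 and 407 CPM in the hth stage, and 6084 and 867 CPM of the 8 neuron markers, against 2412 and 554 CPM. The part of neuron RNA in the differences was not tested. neur stood at 78.8 and 48.5 CPM in the low-mira cells, against 137 and 106 CPM in the hth stage (-0.96 ± 0.14 on the log2 scale, edgeR, adjusted p = 0.00103). kuz stood at 269 and 206 CPM, against 446 and 288 CPM (-0.57 ± 0.12, edgeR, adjusted p = 0.0111). mam stood at 366 and 208 CPM, against 236 and 114.9 CPM (0.77 ± 0.15, edgeR, adjusted p = 0.00486). Dl stood at 273 and 382 CPM, against 232 and 213 CPM (0.63 ± 0.16, edgeR, adjusted p = 0.0243). For neur, mam, kuz and Dl the difference between the sums of the 2 classes had the same direction in both libraries. N stood at 269 and 591 CPM, against 536 and 529 CPM, so that the libraries differed in direction (edgeR, adjusted p = 0.634).

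The Dl value of library 1 came from few cells. Of its Dl UMIs 98.5% lay in 3 of the 18 low-mira cells, and the median cell held 0 CPM, against 218 CPM in the hth-stage cells of that library. The Dl difference was negative without the deepest 5% of cells (-0.31) and in cells thinned to 2000 UMIs (-0.22), and not called in either. In library 2 the 3 cells with the most neur held 76.4% of the neur UMIs of the 39 cells. Without the library block edgeR called 0 of the 8 members, with 4 at an unadjusted p under 0.05, and the kuz call was lost in 5 alternatives. The cells with neuron genes, tested on their own, were called against the hth stage for 2 of 8 members, where 24% of genes were called. Of those genes 53.9% were higher, against 67.3% with DESeq2's size factors. Neither neur (0.095 ± 0.30 on the log2 scale, edgeR, adjusted p = 0.871) nor kuz (-0.25 ± 0.18, edgeR, adjusted p = 0.343) was called in the cells with neuron genes. The differences of neur and kuz were -0.65 and -0.69 within library 1, and 0.55 and 0.11 within library 2. mam stood at 404 and 357 CPM in them, against 236 and 114.9 CPM (1.20 ± 0.19 on the log2 scale, edgeR, adjusted p = 0.00068), and fng had 0 UMIs in both libraries, which allows up to 7.40 and 5.35 CPM, against 7.19 and 22.7 CPM in the hth stage.

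The dpn-negative cells were a mixture. Those with neuron genes (320 and 781 cells) held 5835 and 4471 CPM of 8 neuron markers, against 554 to 4514 CPM in the stage sums. The other dpn-negative cells (175 and 1063) held 43599 and 52756 CPM of the glial gene Obp44a, against 67.5 to 751 CPM in the stages, and were shallow, with a median of 1706 and 725 UMIs. The defining glial gene repo was at 15.0 and 20.6 CPM in them. Of the other glial markers, Npc2a (1034 and 1273 CPM) and wrapper (117 and 134 CPM) were higher than in every stage sum. moody was higher too, at 6.01 and 6.11 CPM, but rested on few UMIs. Eaat1 (60.1 and 82.5 CPM) and nrv2 (186 and 201 CPM) were not, against 70.5 to 191 and 194 to 384 CPM in the stages. loco lay at 21.0 and 52.0 CPM, against 20.0 to 47.8 CPM in the stages. A mira UMI was present in 227 of 495 and 342 of 1844 dpn-negative cells, so free RNA or NBs without a dpn UMI cannot be told apart from the other cells by these counts.

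In dpn-negative cells with neuron genes, 7 of the 8 tested members were called against the mean of the 7 NB stages, where 57.9% of all genes were called (34.6% higher and 23.2% lower). The receptor, the ligand Dl and neur were lower. N stood at 276 and 293 CPM, against 814 and 742 CPM in all staged NBs (-1.43 ± 0.20 on the log2 scale, edgeR, adjusted p = 2.2e-05). Dl stood at 80.4 and 97.5 CPM, against 245 and 218 CPM (-1.45 ± 0.13, edgeR, adjusted p = 1.3e-07). neur stood at 64.7 and 51.9 CPM, against 163 and 114.5 CPM (-1.32 ± 0.21, edgeR, adjusted p = 7.9e-05). Su(H) was lower by less (-0.45 ± 0.12, edgeR, adjusted p = 0.00511). For each of these genes both libraries lay below both values of the staged NBs.

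mam went the other way. It stood at 648 and 408 CPM in dpn-negative cells with neuron genes, against 160.0 and 110 CPM in staged NBs (1.87 ± 0.11 on the log2 scale, a fold of 3.65, edgeR, adjusted p = 3.3e-09). kuz was slightly higher, at 519 and 439 CPM against 431 and 329 CPM (0.34 ± 0.12, edgeR, adjusted p = 0.0278), a call that was lost in 6 alternatives. H did not pass the test (-0.15 ± 0.15, edgeR, adjusted p = 0.387). fng was called higher (1.60 ± 0.49, edgeR, adjusted p = 0.0115), a call lost in 2 alternatives. The fit compares with the mean of the stages on the log scale, and 5 of those stages held almost none. As pooled sums, fng stood at 3.91 and 3.39 CPM in these cells and at 2.28 and 4.18 CPM in the staged NBs, which overlap.

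**Figure D4:**
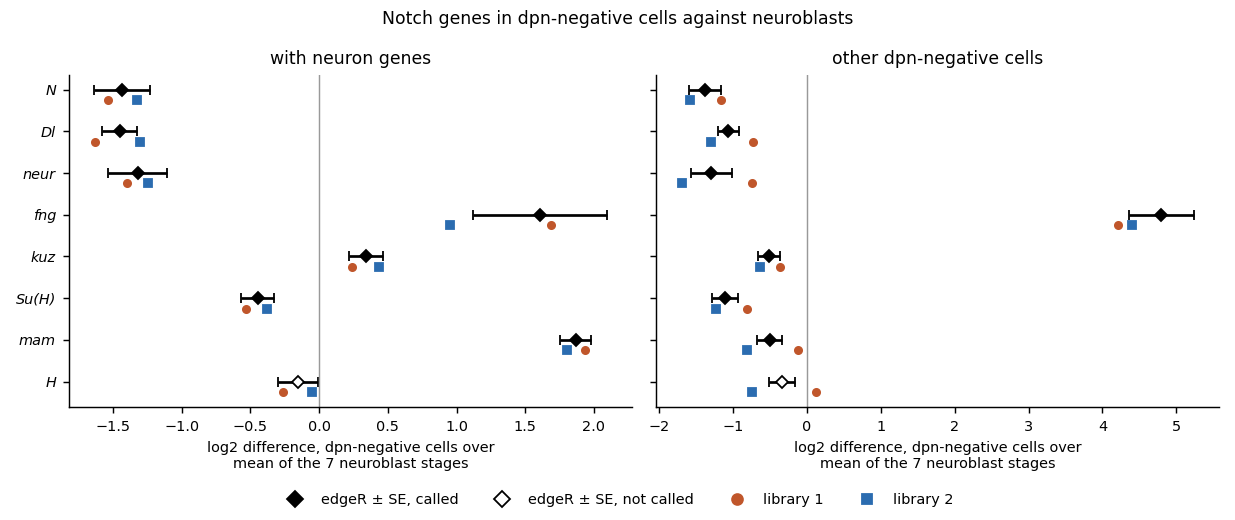
Log2 difference of 8 Notch genes in dpn-negative cells with neuron genes (left) and in the other dpn-negative cells (right) over the mean of the 7 NB stages. Diamonds are edgeR estimates with their SE, filled where called, and circles and squares the differences within library 1 and library 2. In cells with neuron genes, N, Dl and neur lie between -1.32 and -1.45 and mam at 1.87. In the other cells fng lies at 4.80.

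In the other dpn-negative cells 7 of 8 members were also called, against 41% of all genes (24.3% higher and 16.7% lower), 6 of them lower and fng higher. Of all genes called, 59.3% were higher, against 69.4% with DESeq2. N stood at 361 and 233 CPM (-1.38 ± 0.22, edgeR, adjusted p = 0.00014) and Su(H) at 51.1 and 35.2 CPM (-1.11 ± 0.18, edgeR, adjusted p = 0.000201). Dl stood at 150.2 and 93.2 CPM and neur at 102 and 35.9 CPM. mam, at 156 and 62.7 CPM, was lower than in NBs (-0.50 ± 0.17, edgeR, adjusted p = 0.0308), but within library 1 the difference was -0.12 and the call was lost in 6 alternatives. fng was higher, at 24.04 and 38.2 CPM (8 and 50 UMIs) against 2.28 and 4.18 CPM (4.80 ± 0.44, edgeR, adjusted p = 1.5e-06). The 3 cells with the most held 62.5% of these fng UMIs in library 1 and 58.0% in library 2. For the 6 lower members such shares lay between 10.0% and 40.2%, with N at 10.0% and 38.0% and Dl at 12.0% and 40.2%. In cells thinned to 2000 UMIs 4 of the 8 members were called.

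Other genes of the pathway were taken from a list of 39, all of which were tested. Between the gcm and the hth stage 15 of them were called higher and 2 lower, beside 18.7% higher and 23.6% lower of all genes, and their median log2 difference was 0.46, beside -0.15 over all genes. The 15 include dpn, which was used to form the classes. The receptor trafficking genes spdo and numb, which both act in asymmetric division, rose most among the genes named by rule. spdo stood at 275 and 337 CPM in the gcm stage, against 86.3 and 99.97 CPM in the hth stage (1.76 ± 0.20, edgeR, adjusted p = 9.2e-06). numb, which inhibits Notch in 1 daughter cell, stood at 704 and 519 CPM, against 174 and 173 CPM (1.84 ± 0.26, edgeR, adjusted p = 6.3e-05). AP-2alpha, an endocytic adaptor subunit, rose by less (0.67 ± 0.12, edgeR, adjusted p = 0.00041).

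Several genes of the nuclear step were higher too. The co-repressor gro stood at 965 and 797 CPM in the gcm stage, against 485 and 303 CPM in the hth stage (1.23 ± 0.13, edgeR, adjusted p = 6e-06). The co-repressor CtBP stood at 1850 and 1721 CPM, against 1085 and 778 CPM (1.00 ± 0.11, edgeR, adjusted p = 5.7e-06). Of 6 nuclear cofactors 4 were called higher and none lower, where 18.7% of all genes were called higher and 23.6% lower. The gamma-secretase gene aph-1 (1.24 ± 0.15) and the glucosyltransferase gene rumi (0.93 ± 0.15) were also called higher in edgeR, whereas Nct (0.33 ± 0.14), pen-2 (0.27 ± 0.17) and O-fut1 (0.24 ± 0.17) were not called. None of the 5 genes of ligand ubiquitination and endocytosis, among them mib1 (0.46 ± 0.21), lqf (0.02 ± 0.16) and Chc (-0.01 ± 0.12), was called between these stages in edgeR, where 1 had an unadjusted p under 0.05, or in DESeq2. Among the 7 stages edgeR called 0 of the 5, with 0 at an unadjusted p under 0.05, and DESeq2 called 2.

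**Figure D5:**
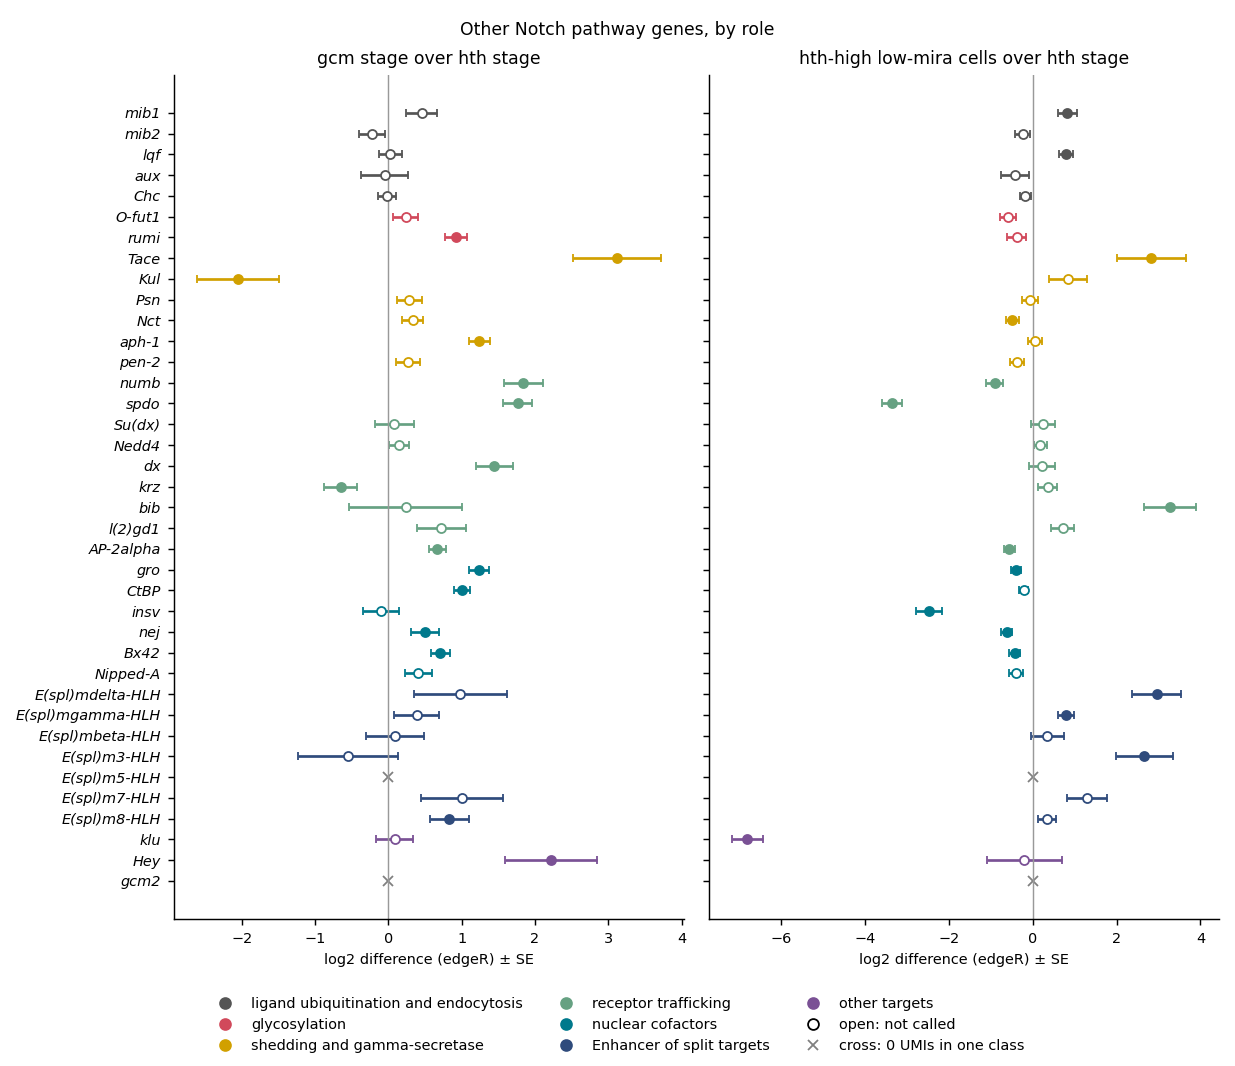
Log2 difference with its SE (edgeR) of 38 other Notch pathway genes, grouped by role, for the gcm over the hth stage (left) and for all hth-high low-mira cells over the hth stage (right). Filled points were called, open points were not, and crosses mark genes with 0 UMIs in one of the classes; dpn is left out because it formed the classes. gro, CtBP, numb and spdo lie between 1.00 and 1.84 on the left, and klu at -6.81 on the right.

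Of the 7 Enhancer of split genes of the bHLH type, direct Notch targets, 6 differed among the 7 stages, against 38.8% of all genes. The 3 named by rule were highest on average in the tll stage. E(spl)mgamma-HLH stood at 454 and 398 CPM in the hth stage, 945 and 1306 CPM in the tll stage, and 495 and 582 CPM in the gcm stage (edgeR over the stages, adjusted p = 0.019), and whether the transgene added to its UMIs was not tested. E(spl)m8-HLH stood at 147 and 134 CPM in the hth stage, 262 and 399 CPM in the tll stage, and 199 and 281 CPM in the gcm stage. E(spl)m7-HLH stood at 245 and 188 CPM in the tll stage, against 30.0 and 92.5 CPM in the hth stage.

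In the hth-high low-mira cells as 1 class, 4 of the 7 Enhancer of split genes were called higher than in the hth stage and none lower, where 5.61% of all genes were called higher. These genes were named after their values were seen. E(spl)mdelta-HLH stood at 40.4 and 44.9 CPM, against 3.59 and 6.17 CPM (2.95, edgeR, adjusted p = 0.006). E(spl)m3-HLH stood at 56.6 and 78.1 CPM, against 2.40 and 15.9 CPM (2.66, edgeR, adjusted p = 0.023). E(spl)m5-HLH stood at 32.3 and 16.2 CPM (16 and 41 UMIs) and had 0 UMIs in both hth-stage sums, which allows up to 3.59 and 0.661 CPM. E(spl)mgamma-HLH stood at 584 and 841 CPM, against 454 and 398 CPM (0.79 ± 0.19, edgeR, adjusted p = 0.017), but the difference was -0.068 in thinned cells. In the same comparison klu, a zinc finger gene that responds to Notch in NBs, stood at 14.1 and 2.37 CPM (7 and 6 UMIs), against 600.2 and 516 CPM (-6.81 ± 0.38, edgeR, adjusted p = 5.3e-07). spdo was lower too, at 12.1 and 8.67 CPM against 86.3 and 99.97 CPM (-3.36 ± 0.24, edgeR, adjusted p = 5.7e-06), as were numb (-0.91 ± 0.21) and gro (-0.41 ± 0.12) by edgeR. The ligand ubiquitin ligase gene mib1 was higher, at 28.3 and 27.2 CPM against 15.6 and 16.1 CPM (0.83 ± 0.23, edgeR, adjusted p = 0.033), the opposite direction to neur. lqf, an epsin gene that acts in ligand endocytosis, was higher as well, at 164 and 109 CPM against 102 and 61.4 CPM (0.79 ± 0.17, edgeR, adjusted p = 0.0082). In dpn-negative cells with neuron genes lqf stood at 238 and 214 CPM. Cells with neuron genes made up 16 of 18 and 14 of 39 low-mira cells, and their part in these differences was not tested.

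In dpn-negative cells with neuron genes 25 of the 39 pathway genes were called, 11 higher and 14 lower, among 57.9% of all genes. The 14 include dpn, whose call was fixed in advance because these cells were chosen for holding no dpn UMI. spdo stood at 32.6 and 51.6 CPM (-2.04 ± 0.17, edgeR, adjusted p = 7.7e-08) and numb at 141 and 134 CPM (-1.39 ± 0.21, edgeR, adjusted p = 4.3e-05). lqf was higher, at 238 and 214 CPM (1.74 ± 0.09, edgeR, adjusted p = 8.1e-10). Hey, a target that marks the Notch-active daughters of ganglion mother cells and was named after its values were seen, stood at 69.9 and 173 CPM, against 4.75 and 5.29 CPM in staged NBs (4.57, edgeR, adjusted p = 1.6e-09).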

How the data were processed

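The authors aligned reads to the BDGP6.22 release with Cell Ranger (3.0.1 and 3.1.0) and the deposited values are raw counts of UMIs for each gene in each cell, not normalized. The 38 mt: genes gave the mitochondrial share. Of the dpn-positive cells the 5 with the most UMIs were removed. Stage was the factor with the highest CPM, scaled to its 95th percentile in the library, among factors with at least 2 UMIs; 199 and 204 cells had none and entered no test. hth-high low-mira cells had at least 2 hth UMIs, 200 CPM of hth, under 50 CPM of mira and 5000 UMIs (9 and 7 cells were too shallow to place). Neuron genes (nSyb, Syt1, brp, para, Syn, cac, elav) needed 2 UMIs and 100 CPM.

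Sums per library and class were fitted in edgeR 4.0.16 (R 4.3.3) with TMM, filterByExpr and the library as a block: 21 sums of 11 classes, 9 residual degrees of freedom, common dispersion 0.0223. A class with under 10 cells in a library was left out, so the planned test of hth-high low-mira cells without neuron genes was not made. A second fit (18 sums, 7588 genes) took low-mira cells as 1 class. Every class holds cells of the same 2 dissociations, and deviations of a library's classes correlated by 0.173 to 0.575 over 8073 genes, so the library number pairs the sums. DESeq2 1.42.0 was an alternative. Poisson intervals are exact (95%).

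The members, the pathway list and the markers were chosen with earlier results of these data known. Named genes are the 9 members, at most 3 pathway genes of each role with the smallest adjusted p over the stages and at least 10 CPM, and the 3 genes most like each member above 20 CPM; exceptions are marked. Coordinates are from the BDGP6.54 annotation (Ensembl), a later one than that used for counting. Overlapping genes were not examined. No doublet caller was run; an alternative leaves out the deepest 5% of cells. The remaining cells over the mitochondrial limit (5276 and 1197) were not analysed here.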

Additional observations from a re-analysis of the deposited data

How the results depend on the processing

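In cells thinned to 2000 UMIs, members called were 0 among the 7 stages, 1 for gcm over hth, 0 for all low-mira cells over hth, 1 for low-mira cells with neuron genes and 4 for the other dpn-negative cells, and 0 between neighboring stages, while genes called were 746, 728, 100, 349, 933 and 136, and 2014 for dpn-negative cells with neuron genes, where 5 members were called (main 7). Without a replicate block, members called were 3 for gcm over hth, 0 for all low-mira cells, 1 for those with neuron genes and 0 between neighboring stages, and genes called were 1667 among the stages, 358 and 961 for the 2 low-mira comparisons and 145 between neighbors. With a mitochondrial limit of 20% members called were 2 among the stages, 3 for gcm over hth, 2 for all low-mira cells and 0 between neighbors, and genes called were 1600 among the stages and 9 between neighbors (main 3135 and 749). For gcm over hth the latest stage factor in place of the highest gave 3 members, and 322 genes between neighbors. Without the deepest 5% of cells all low-mira cells had 2 members and 468 genes called and neighbors 0 members; a mira limit of 100 CPM gave 2 members. Without staged cells holding neuron genes, chosen after seeing the data, all low-mira cells had 1657 genes called, and neighbors 3 members and 1357 genes. Clear cells gave 2 members between neighbors, and DESeq2 3 members and 1224 genes. In thinned cells the low-mira differences of AP-2alpha (0.21) and E(spl)mgamma-HLH (-0.068), and that of Dl (-0.22, and -0.31 without the deepest 5% of cells), had the other sign. DESeq2's size factors moved the median log2 difference of all genes to 0.20 for dpn-negative cells with neuron genes (main 0.089), to 0.18 for the other dpn-negative cells (main 0.048) and to 0.07 for low-mira cells with neuron genes (main -0.066). The cause was not tested. A single library leaves no residual degrees of freedom, so leaving one out gives values without a test.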
